A study of Mus musculus with 6 samples.

Results

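The 10 genes described here carry heme and iron through macrophages: Slc48a1, Hmox1, Blvra, Blvrb, Fth1, Ftl1, Slc40a1, Slc11a1, Tfrc and Spic. They were chosen by gene symbol, and all 10 were found among the 54532 genes of the count table and passed the filter on low counts, as did 13776 genes in all. RNA came from sorted Kupffer cells, the macrophages that reside in the liver sinusoids, in 6 libraries: 3 from Trem2-deficient male mice (Trem2 KO, here Trem2_KO) and 3 from their wild-type littermates (WT, genotype given as control). Mice of both groups were 8 weeks old when a high fat diet of 8 weeks began, so every library comes from a fat-fed mouse and no lean group was analysed here. TREM2 is a receptor by which macrophages sense lipids. The strain, the deleted part of the gene, any promoter or Cre that limits the deletion, the sort markers and whether each library is 1 mouse are not stated in the labels, so p-values measure only the spread between these libraries, which may be technical.

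Kupffer cells clear aged red blood cells from the blood and return their iron to the circulation. Hemoglobin is broken down in the phagolysosome, heme is moved to the cytosol by the transporter SLC48A1 (HRG1), and heme oxygenase 1 (HMOX1) opens the heme ring to give iron, carbon monoxide and biliverdin, which biliverdin reductases turn into bilirubin. The iron is stored in ferritin, a shell built of heavy (FTH1) and light (FTL1) chains, or leaves through ferroportin (SLC40A1), the known cellular iron exporter. SLC11A1 (NRAMP1) moves divalent metals out of the phagosome, the transferrin receptor (TFRC) brings in iron bound to transferrin, and SPIC is a transcription factor of the iron-recycling macrophages of spleen and liver that is induced by heme.

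Some of these transcripts carry an iron-responsive element, a short hairpin that binds the iron regulatory proteins when iron is low. In the 5′ untranslated region (UTR) the bound protein blocks translation, and in the 3′ UTR of Tfrc it protects the transcript from decay. The counts here measure transcript levels and not translation. The elements are shown because Fth1, Ftl1 and Slc40a1, which carry one, were called lower, while Tfrc was not called. The difference between these genes was not tested. A search of GENCODE M21 transcripts for a C, then 5 bases, the loop CAGTGN (last base not G), then 5 bases that pair with the first 5 (G with T allowed) found 7 sites in the UTRs of 4 of the 10 genes. The search was made on the transcript strand only. At least 1 UTR match was found in 0.562% of 21877 protein-coding genes. In the 29 bases printed per site, the capitals mark the bulged C and the 6 bases of the loop.
Fth1, 5′ UTR, exon 1, chr19:9982732-9982760, plus strand: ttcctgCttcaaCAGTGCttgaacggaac
Ftl1, 5′ UTR, exon 1, chr7:45459779-45459807, minus strand: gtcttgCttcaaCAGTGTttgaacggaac
Slc40a1, 5′ UTR, exon 1, chr1:45925465-45925493, minus strand: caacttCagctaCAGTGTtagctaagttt
Tfrc site 1, 3′ UTR, exon 19, chr16:32631219-32631247, plus strand: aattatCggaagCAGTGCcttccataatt
Tfrc site 2, 3′ UTR, exon 19, chr16:32631598-32631626, plus strand: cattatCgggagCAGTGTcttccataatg
Tfrc site 3, 3′ UTR, exon 19, chr16:32631663-32631691, plus strand: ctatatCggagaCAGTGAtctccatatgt
Tfrc site 4, 3′ UTR, exon 19, chr16:32631710-32631738, plus strand: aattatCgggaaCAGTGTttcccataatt
Coordinates are those of GRCm38. The ferritin elements of Fth1 and Ftl1 had the same letter at 16 of 17 positions from the bulged C to the end of the stem, and the Slc40a1 element shared 10 of 17 with that of Fth1. The 4 Tfrc sites shared 11 to 15 of 17 positions with each other. The search itself fixes the bulged C and the CAGTG of the loop, so these letters are the same in every pair and are part of each count. A match is a description of the letters, and no match in the other 6 genes says only that these letters were not found.

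Levels are given as CPM, a gene's counts relative to the library's total, scaled between libraries by edgeR's TMM factors. Trem2 itself was read at 84.8, 90.1 and 84.3 CPM in the WT libraries and at 16.6, 17.4 and 14.5 CPM in the knockout ones, in the direction of the labels in all 6 libraries. Total counts were 15799351 to 17135603 per library. Of 10 Kupffer cell markers, all were detected, with a summed level of 42926 to 44296 CPM in WT and 38778 to 39354 CPM in Trem2_KO, and 8 of them were called lower and 0 higher. Of 10 proliferation markers, 9 were called lower and 0 higher. Of 12 sinusoidal endothelial markers 10 were called higher and 1 lower, with sums of 2005 to 2022 CPM in WT and 1976 to 1987 CPM in Trem2_KO. Most of these sums came from Cdh5, the 1 called lower, named with its values known. It was read at 1251 to 1262 CPM in WT and 1125 to 1131 CPM in Trem2_KO, so the sums do not show the rise of the 10. Of 13 tested hepatocyte markers 7 were called lower and 3 higher (sums of 1667 to 1728 and 1432 to 1482 CPM). Monocyte markers had 4 of 8 tested genes called higher and 2 lower, with sums of 733 to 746 CPM in WT and 785 to 818 CPM in Trem2_KO. Of 7 tested stellate cell markers 3 were called higher and 0 lower (sums of 202 to 211 and 251 to 256 CPM), and of 7 tested B and plasma cell markers 0 were called higher and 3 lower (sums of 117 to 121 and 92.0 to 102 CPM). Of the tested markers, 1 of 3 for neutrophils was called lower, 1 of 4 for T and NK cells higher, and of 6 for dendritic cells 1 higher and 1 lower. All these counts are to be read beside the 30.4% of all tested genes that were called in either direction. Among tested genes with a mean of at least 40 CPM this share was 49.7%. In these bulk samples, fewer cells of a type and less RNA per cell cannot be told apart, and the part of these markers in the results below was not tested.

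The heme and iron recycling genes fell in the knockout along most of the route. At an edgeR adjusted p under 0.05, 7 of the 10 were called lower (Slc48a1, Hmox1, Blvrb, Fth1, Ftl1, Slc40a1 and Spic) and 0 higher. These 7 fell by 12.9% to 27.2%. Among all tested genes 30.4% were called, 15.1% lower and 15.3% higher, and among the 4572 tested genes with a mean of at least 40 CPM, the range that holds all 10, 49.7% were called in either direction. The median log2 change was -0.30 over the 10 genes and -0.005 over all tested genes. The libraries of the 2 groups did not overlap for 8 of the 10 genes, 7 lower and 1 higher, against 41.6% of all tested genes. This share was not computed for the genes of at least 40 CPM alone. Together the 10 genes took 1.51% to 1.53% of the counts of each WT library and 1.21% to 1.27% of each Trem2_KO library. None lies on chromosome 17, the chromosome of Trem2.

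**Figure D1:**
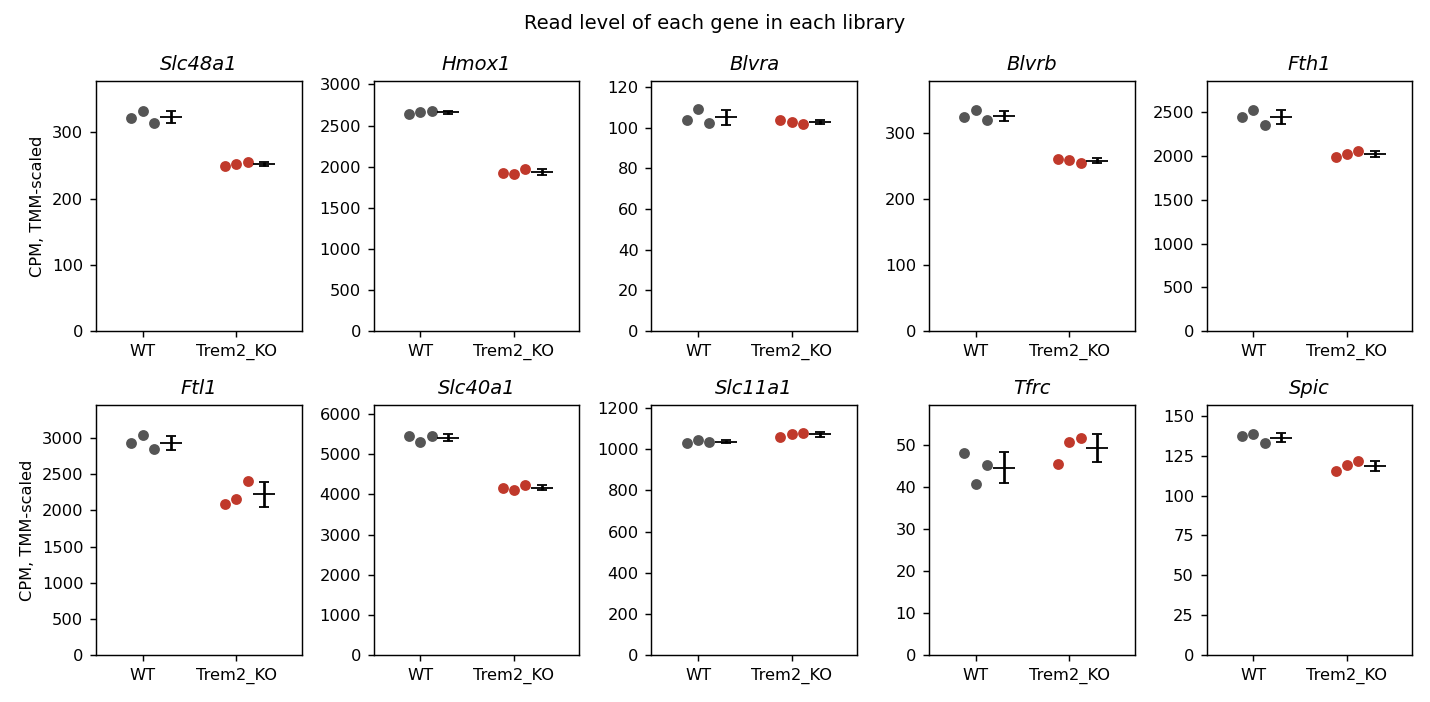
Level of each of the 10 genes in TMM-scaled CPM (y axes start at 0), 1 point per library (WT grey, Trem2_KO red), with the mean and SD (n = 3 per group) as a bar beside the points. The 3 Trem2_KO libraries sit below all WT libraries for Slc48a1, Hmox1, Blvrb, Fth1, Ftl1, Slc40a1 and Spic, and above them for Slc11a1; for Blvra and Tfrc the groups overlap in part.

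Heme entry into the cytosol was represented by Slc48a1 (ENSMUSG00000081534, chromosome 15, 97778520 to 97792692). It was read at 322, 333 and 314 CPM in the WT libraries and at 249, 253 and 255 CPM in the knockout ones. The groups were well apart, and the 3 knockout libraries lay closer together than the WT ones. Slc48a1 fell by 21.9%, a log2 change of -0.36 (SE 0.0315, n = 3 per group, edgeR adjusted p = 1.11e-13). It overlaps Hdac7 on the other strand by 29 bases, and Hdac7 had 502 reads over all libraries against 27984 for Slc48a1.

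Hmox1 (ENSMUSG00000005413, chromosome 8, 75093621 to 75100589), the inducible heme oxygenase, had the largest fall of the 10, except with the trend with gene length removed, where Slc40a1 fell more (-0.45 against -0.37). It was read at 2644, 2662 and 2677 CPM in the WT libraries and at 1922, 1913 and 1977 CPM in the knockout ones. Each group was tight, with a coefficient of variation of 0.614% in WT and 1.8% in Trem2_KO, against 0.49% and 0.552% from counting alone. The fall was 27.2%, a log2 change of -0.46 (SE 0.0231, edgeR adjusted p = 4.21e-23). Its constitutive relative Hmox2, not one of the 10, was read at 172, 171 and 160 CPM in the WT libraries and at 160, 143 and 152 CPM in the knockout ones. Hmox2 changed by -0.15 (edgeR adjusted p = 0.0034), but the lowest WT library lay below the highest knockout library, and the call was lost after removal of the trend with gene length (-0.07, adjusted p = 0.146), without Trem2_KO replicate 2 (-0.10, adjusted p = 0.0842) and by limma on log2(FPKM + 1) (adjusted p = 0.0608). Por, the reductase that supplies electrons to heme oxygenases and named with its value known, lay at a mean of 147 CPM in both groups and was not called.

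The biliverdin reductases went separate ways. Blvrb (ENSMUSG00000040466, chromosome 7, 27447978 to 27466144), a flavin and biliverdin reductase abundant in red cells, was read at 323, 333 and 319 CPM in the WT libraries and at 260.5, 259 and 253 CPM in the knockout ones. All knockout libraries were lower, by 20.8% on average (log2 change -0.34, SE 0.0312, edgeR adjusted p = 6.19e-13). Blvra (ENSMUSG00000001999, chromosome 2, 127070665 to 127097084), the main biliverdin reductase of adult tissue, was read at 104, 109 and 102 CPM in the WT libraries and at 104, 103 and 102 CPM in the knockout ones. The groups overlapped in part, with WT replicate 2 above and Trem2_KO replicate 3 below every library of the other group, and the log2 change of -0.03 (SE 0.042, edgeR adjusted p = 0.642) was smaller than its error. Its sign was positive with total counts and after removal of the trend with gene length. The difference between the 2 genes' changes was not tested.

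Both ferritin chains fell. Fth1 (ENSMUSG00000024661, chromosome 19, 9982703 to 9985092), the ferroxidase chain, was read at 2446, 2523 and 2360 CPM in the WT libraries and at 1990, 2022 and 2061 CPM in the knockout ones. The groups did not overlap, and the change was -0.27 on the log2 scale (SE 0.0243, edgeR adjusted p = 1.98e-13), a fall of 17.1%. With the gene length trend removed it was -0.17 (adjusted p = 2.07e-08).

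Ftl1 (ENSMUSG00000050708, chromosome 7, 45457944 to 45459884), the chain that aids mineral formation in the shell, was read at 2927, 3042 and 2846 CPM in the WT libraries and at 2086, 2163 and 2413 CPM in the knockout ones. Trem2_KO replicate 3 lay above the other 2 knockout libraries, although still below every WT library. The log2 change was -0.40 (SE 0.0661, edgeR adjusted p = 0.0118), a fall of 24.4%, and it was -0.47 (adjusted p = 3.53e-24) without that library. The call was lost after removal of the trend with gene length, at -0.29 (adjusted p = 0.0534), under a replicate block, at -0.41 (adjusted p = 0.0597), and under both together, at -0.30 (adjusted p = 0.126). Ftl1-ps1, annotated as a copy of Ftl1, was read at 69.7, 79.4 and 66.8 CPM in the WT libraries and at 50.1, 49.8 and 48.0 CPM in the knockout ones, and was not raised in replicate 3. Reads of near-identical copies may have been split between the 2 genes. Ftl1 also overlaps Gm10252 on the other strand by 416 bases, which had 91 reads over all libraries against 250670 for Ftl1. With the reads of the copy added to Ftl1, an alternative chosen after the data were seen, the change of Ftl1 was -0.41 (adjusted p = 0.0102).

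Ferritin made up a sizeable share of the libraries. Fth1 and Ftl1 together took 0.533%, 0.548% and 0.515% of all gene counts in WT and 0.411%, 0.422% and 0.452% in Trem2_KO. The groups were apart by -0.103 percentage points (0.532 ± 0.0163 against 0.428 ± 0.021, SD, n = 3 per group, two-sided exact permutation p = 0.1). This is the smallest p that 3 against 3 libraries can give. The log2 ratio of Fth1 to Ftl1, in counts per kilobase, was 0.37, 0.36 and 0.36 in WT and 0.56, 0.53 and 0.40 in Trem2_KO. The ratio was higher in the knockout (difference 0.14, exact permutation p = 0.1). Per length the heavy chain was ahead in every library, with gene lengths of 866 bases for Fth1 and 1340 for Ftl1. In counts without regard to length, Ftl1 was ahead of Fth1 in every library. The sign of the ratio thus rests on these lengths, and the difference between the groups does not. The difference was 0.18 without Trem2_KO replicate 3, which lay closest to WT.

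Slc40a1 (ENSMUSG00000025993, chromosome 1, 45908068 to 45926523) encodes ferroportin and took more reads than any other of the 10 genes. It was read at 5465, 5316 and 5457 CPM in the WT libraries and at 4168, 4112 and 4234 CPM in the knockout ones. The knockout libraries were all lower, by 22.9% on average, a log2 change of -0.38 (SE 0.0218, edgeR adjusted p = 1.42e-20). Hamp, which encodes hepcidin, the hormone that degrades ferroportin, was read at 10.98, 8.12 and 10.4 CPM in the WT libraries and at 4.39, 5.22 and 5.30 CPM in the knockout ones. Hamp fell by 0.99 on the log2 scale (edgeR adjusted p = 2.06e-07). It is also one of the hepatocyte markers, of which 7 of 13 tested were called lower and 3 higher in these libraries.

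The 2 other metal transport genes did not follow this pattern. Slc11a1 (ENSMUSG00000026177, chromosome 1, 74375195 to 74386062) was read at 1029, 1045 and 1035 CPM in the WT libraries and at 1060, 1076 and 1081 CPM in the knockout ones. The knockout libraries were the higher ones without overlap, but by 3.46%, and the change of 0.05 on the log2 scale (SE 0.0248, edgeR adjusted p = 0.132) did not pass the test. It passed with total counts (0.08, adjusted p = 0.01), with a stricter filter (0.06, adjusted p = 0.0497) and after removal of the trend with gene length (0.08, adjusted p = 0.00918).

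Tfrc (ENSMUSG00000022797, chromosome 16, 32608920 to 32632794) had the lowest level of the 10. It was read at 48.0, 40.7 and 45.2 CPM in the WT libraries and at 45.4, 50.6 and 51.7 CPM in the knockout ones. The groups overlapped, since the lowest knockout library lay below the highest WT library. The log2 change was 0.14 (SE 0.0617, edgeR adjusted p = 0.0768). Tfrc was called higher without WT replicate 1 (0.20, adjusted p = 0.0325), without Trem2_KO replicate 1 (0.20, adjusted p = 0.0225), with total counts (0.17, adjusted p = 0.0309) and with a stricter filter (0.15, adjusted p = 0.045). It was smaller and not called without WT replicate 2 (0.08, adjusted p = 0.44) and without Trem2_KO replicate 3 (0.10, adjusted p = 0.274). Dividing cells are known to carry more transferrin receptor, and the proliferation markers fell in these libraries. Their part in the level of Tfrc was not tested.

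Export and transferrin uptake were also set against each other within each library. The log2 ratio of Slc40a1 to Tfrc, in counts per kilobase, was 6.29, 6.49 and 6.37 in WT and 5.98, 5.80 and 5.81 in Trem2_KO. Every knockout library had the lower ratio, with a difference of -0.52 (6.38 ± 0.1 against 5.87 ± 0.0993, SD, n = 3 per group, exact permutation p = 0.1, the smallest possible). Of the 4 genes with an iron-responsive element, the 3 with the element in the 5′ UTR (Fth1, Ftl1 and Slc40a1) fell. Tfrc, with its sites in the 3′ UTR, was at 0.14 and not called. Slc48a1, Hmox1, Blvrb and Spic, in which no match was found, fell as well. Whether the changes go with the element was not tested.

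**Figure D2:**
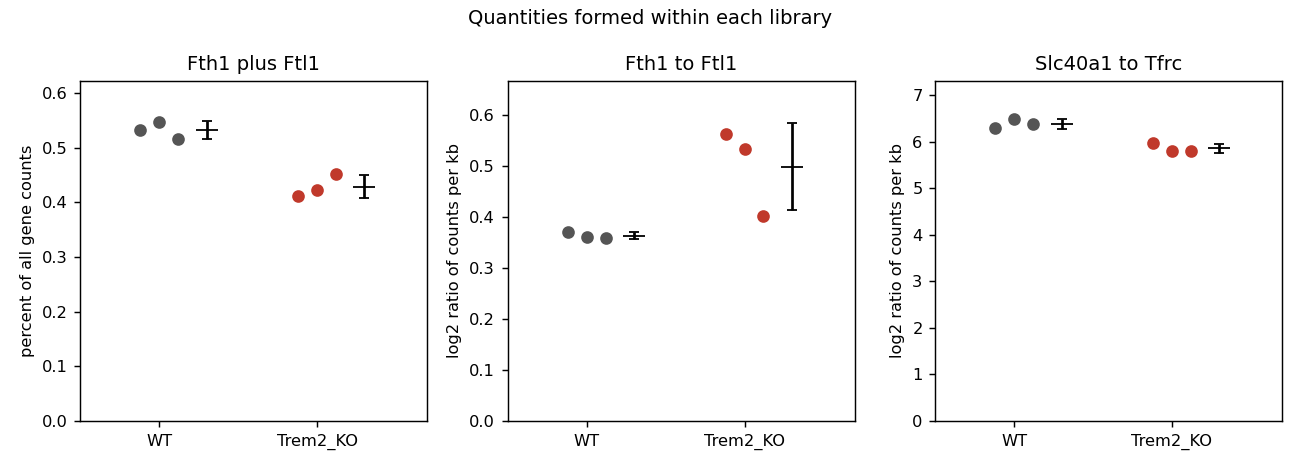
The 3 quantities formed within each library (y axes start at 0): the percent of all gene counts on Fth1 plus Ftl1, and the log2 ratios, in counts per kilobase, of Fth1 to Ftl1 and of Slc40a1 to Tfrc; points are libraries and bars are mean and SD (n = 3 per group). The ferritin share and the Slc40a1 to Tfrc ratio are lower in every Trem2_KO library, and the Fth1 to Ftl1 ratio is higher, with Trem2_KO replicate 3 at 0.40 closest to WT.

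Spic (ENSMUSG00000004359, chromosome 10, 88674772 to 88685015), the transcription factor of the group, showed the smallest of the 7 falls, except with the trend with gene length removed, where Fth1 fell less (-0.17 against -0.18). It was read at 137, 138 and 133 CPM in the WT libraries and at 115, 119 and 122 CPM in the knockout ones. The groups did not overlap, and the log2 change was -0.20 (SE 0.0392, edgeR adjusted p = 5.95e-05), a fall of 12.9%. The spread within each group, 2.08% in WT and 2.74% in Trem2_KO, was close to that of counting alone (2.17% and 2.23%).

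**Figure D3:**
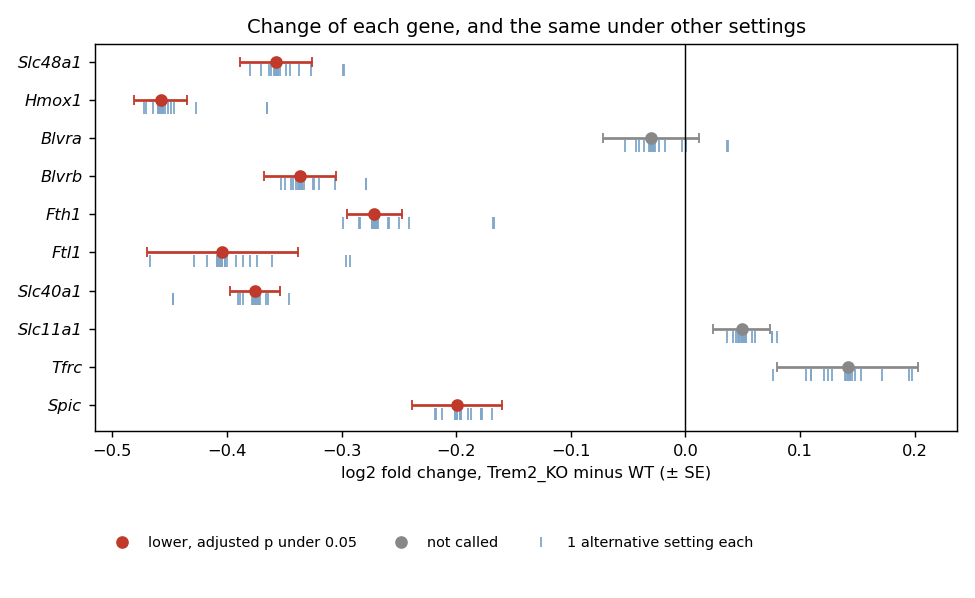
Log2 fold change of the 10 genes, Trem2_KO minus WT, with the SE from edgeR (red, called lower; grey, not called), and as blue ticks the value under each alternative setting. The 7 called genes stay below 0 in every setting drawn, Slc11a1 and Tfrc stay above it, and Blvra lies on either side.

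Per length, the order of the 10 genes was nearly the same in the 2 groups. Mean FPKM in WT ran from Fth1 (2808 ± 95.5, SD, n = 3) over Ftl1 (2183 ± 74.1), Hmox1 (1513 ± 7.7), Slc40a1 (599 ± 9.29) and Slc11a1 (278 ± 2.06) to Slc48a1 (117 ± 3.46) and Blvrb (116 ± 2.73), then Blvra (42.8 ± 1.53), Spic (35.3 ± 0.763) and Tfrc (7.18 ± 0.6). Fth1 ranked 10 and Ftl1 19 of the 13776 tested genes by mean FPKM, while Tfrc ranked 5223. Neighbours in this order did not overlap between libraries, with the exception of Slc48a1 and Blvrb, which overlapped in both groups and stood in the opposite order in Trem2_KO (91.2 ± 1.05 and 92.0 ± 1.28 FPKM).

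The calls rest on a very small spread between libraries, with a common biological coefficient of variation of 0.0378. With this value fixed at 0.1 for every gene, 5 of the 10 genes were called lower, without Fth1 and Spic. At that value 10.8% of all tested genes were called, 938 higher and 549 lower. With 0.2 fixed, 0 of the 10 were called, while 2.69% of all tested genes still were.

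Other genes of heme and iron handling moved in both directions. Of 98 tested genes on 12 lists, 21 were called higher and 21 lower, with a median log2 change of -0.03, so 42.9% were called against 30.4% of all tested genes. Among tested genes with a mean of at least 40 CPM the share was 49.7%, and the lists hold genes above and below that level. An excess of calls on the lists is thus not shown. The counts given below for single lists are to be read beside these shares. With total counts in place of TMM, which called 61.3% of all called genes higher against 50.3%, the split was 27 higher and 17 lower.

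Of 8 genes listed under hemoglobin and heme scavenging, 4 were called higher and 1 lower. The list is broad, and not every gene on it binds hemoglobin or heme. Stab1 and Stab2, among the 4, are scavenger receptors not specific to either. Stab1, a scavenger receptor of macrophages and endothelium, changed by 0.56 (edgeR adjusted p = 7.31e-22) and Hpx, the heme-binding plasma protein hemopexin made by hepatocytes, by 0.31 (adjusted p = 1.71e-06). Lrp1, the hemopexin receptor, and Stab2, both chosen after their values were seen, changed by 0.15 and 0.08. Stab2 is one of the endothelial markers, of which 10 of 12 were called higher and 1 lower. Cd163, the receptor of haptoglobin-bound hemoglobin, was read at 3590, 3525 and 3615 CPM in the WT libraries and at 3408, 3330 and 3261 CPM in the knockout ones, a small fall by 0.10 on the log2 scale (edgeR adjusted p = 0.000332).

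Of 5 tested heme transporters and carriers, 2 were called lower and 0 higher. The plasma membrane heme exporter Flvcr1 changed by -0.18 (edgeR adjusted p = 0.0172) and the heme chaperone Pgrmc2 by -0.19 (adjusted p = 0.0185), and both lost their call with DESeq2 (adjusted p = 0.0615 and 0.0715), with total counts (0.0522 and 0.0525), without WT replicate 2 (0.0514 and 0.0909) and without Trem2_KO replicate 2 (0.0648 and 0.0779). Pgrmc2 also lost it without WT replicate 1 or Trem2_KO replicate 3 (adjusted p = 0.0644 and 0.0883) and with the length trend removed (0.0866). Of 12 heme synthesis genes, 4 were called lower and 1 higher. Alas1, the first and rate-limiting enzyme outside red cells, went from 44.6, 47.4 and 49.7 CPM to 56.9, 57.1 and 58.8 CPM, a rise of 0.29 (edgeR adjusted p = 4.73e-05). Tmem14c, which carries a heme precursor into the mitochondrion, changed by -0.29 (-0.18 with the length trend removed), and Cpox and Urod, chosen after their values were seen, by -0.23 and -0.24.

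Of 5 tested genes that load, store or turn over ferritin iron, 2 were called lower and 2 higher. Ncoa4, the receptor that delivers ferritin to the lysosome for iron release, was read at 360, 348 and 380 CPM in the WT libraries and at 290, 279 and 294 CPM in the knockout ones, a change of -0.33 (edgeR adjusted p = 1.94e-12). The iron chaperone Pcbp1, which loads ferritin, changed by -0.19 (adjusted p = 6.12e-06), and by -0.10 with the length trend removed (adjusted p = 0.00772). The 2 that rose were the ligase Herc2, chosen after its value was seen, by 0.17, and the tetraspanin Cd63, known from ferritin-bearing vesicles, by 3.63 (adjusted p = 3.18e-30), from 2.3, 2.81 and 1.98 CPM to 32, 27.5 and 28.2 CPM. Of 10 tested uptake genes, the endosomal ferrireductase Steap3 fell by 0.55 (adjusted p = 1.23e-05) and the sorting nexin Snx3, which recycles the transferrin receptor, by 0.20 on the log2 scale in edgeR (adjusted p = 6.52e-06), and by 0.09 with the length trend removed (adjusted p = 0.0266). Lcn2, a siderophore-binding protein read at 0.192 to 1.09 CPM in WT and 1.64 to 2.83 CPM in Trem2_KO, rose by 1.76 (edgeR adjusted p = 0.000201; 2.37 without WT replicate 1 and 0.56 by limma on log2(FPKM + 1)), close to the limit that a count of 0 allows (0.173 to 0.192 CPM, counting error only).

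Of the 3 regulators of iron-responsive RNAs 1 was called. Aco1 and Ireb2, the 2 iron regulatory proteins, were at -0.07 and 0.10 and were not called (edgeR adjusted p = 0.177 and 0.13), and Fbxl5, the ligase subunit that removes Ireb2 protein, rose by 0.17 (adjusted p = 0.0106). Ireb2 was called with total counts (0.13, adjusted p = 0.044), and Fbxl5 lost its call after removal of the trend with gene length (0.09, adjusted p = 0.214). Without WT replicate 2 or without Trem2_KO replicate 3 Fbxl5 was not called either (adjusted p = 0.0696 and 0.0791), nor by limma on log2(FPKM + 1) (adjusted p = 0.0881).

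Heme is known to release the repressor BACH1 from the Hmox1 gene and so to let NRF2 (Nfe2l2) and small MAF proteins act there. Bach1 was read at 121, 109 and 125 CPM in the WT libraries and at 113, 113 and 119 CPM in the knockout ones and was not called (log2 change -0.04, edgeR adjusted p = 0.529). Nfe2l2 fell by 0.15 on the log2 scale (edgeR adjusted p = 0.000159), from 279, 269 and 280.5 CPM to 241, 255 and 249 CPM. The small MAF genes Maff and Mafg rose by 1.07 and 0.24 (adjusted p = 1.97e-08 and 1.63e-06), as did Mafk, chosen after its value was seen, by 0.24, and Epas1, a hypoxia-inducible factor, by 0.42 (adjusted p = 1.89e-05). Of the 13 regulators 4 were called higher and 4 lower, the other falls being Hif1a (-0.14), Nr1d1 (-0.28) and Nr1d2 (-0.14), chosen after their values were seen.

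Of 9 tested BACH1 and NRF2 targets other than Hmox1 and ferritin, 3 were called lower and 1 higher, with a median change of 0.02. G6pdx and Gclm, which serve NADPH and glutathione supply, changed by -0.15 and -0.16 (edgeR adjusted p = 0.000448 and 0.00672; G6pdx -0.10 with the length trend removed), and Prdx1, chosen after its value was seen, by -0.09. Me1, the malic enzyme, rose by 1.20 (0.38 by limma on log2(FPKM + 1)) from 0.895 to 1.47 CPM in WT to 2.25 to 3.47 CPM in Trem2_KO (adjusted p = 0.000903). Without Trem2_KO replicate 1 Gclm was not called (adjusted p = 0.066).

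Of 15 tested systemic iron sensing genes, mostly of the BMP pathway that controls hepcidin, 40% were called. The share was 30.4% among all tested genes and 49.7% among those with a mean of at least 40 CPM. Of the 15 genes, 6 were called higher and 0 lower. By smallest p these were first the pathway's feedback inhibitor Smad7 (0.37, edgeR adjusted p = 5.02e-09), its target Id1 (0.21, adjusted p = 0.0005; 0.32 with the length trend removed) and Smad4 (0.19, adjusted p = 0.00297). Bmp2, a ligand gene among the 6 that was chosen after its value was seen, rose by 0.38 (adjusted p = 0.00306) and is also an endothelial marker. Of 14 mitochondrial iron genes, 1 was called higher, the iron importer Slc25a37 (0.28, edgeR adjusted p = 7.05e-05), and 1 lower, the iron-sulfur carrier Glrx5 (-0.36, adjusted p = 0.00402). Glrx5 was not called by limma on log2(FPKM + 1) (adjusted p = 0.0755), and its groups overlapped.

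**Figure D4:**
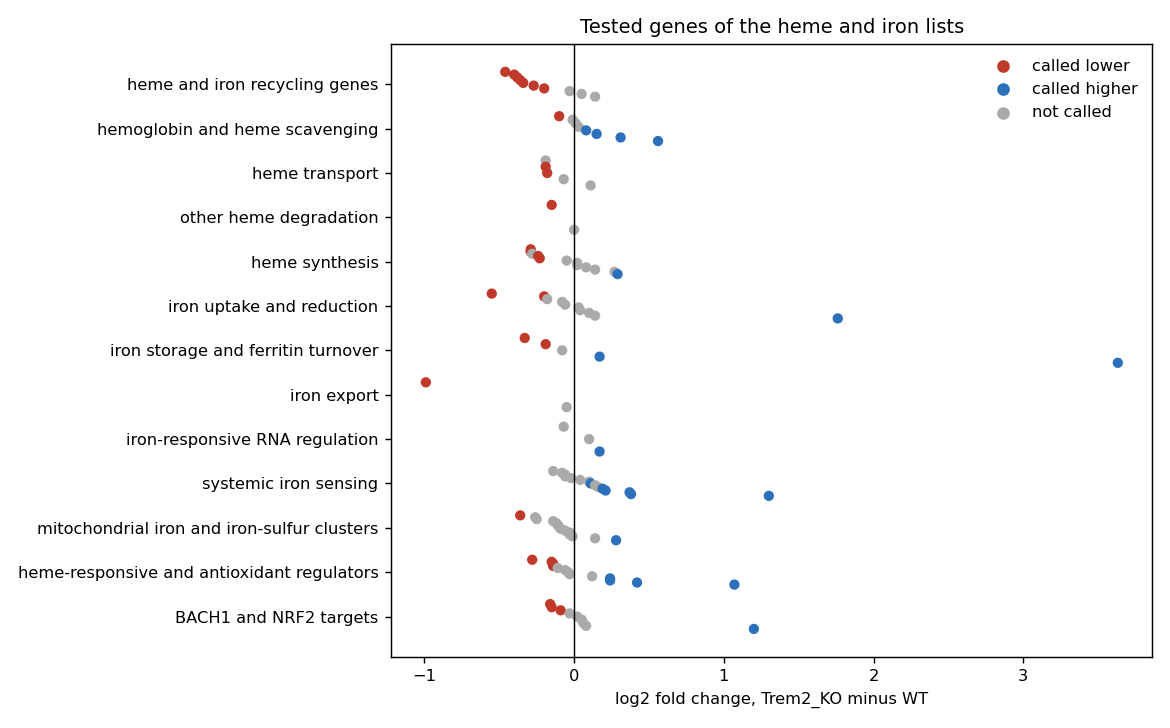
Log2 fold change, Trem2_KO minus WT, of every tested gene of the 10 heme and iron recycling genes (top row) and of 12 lists of related genes, 1 point per gene (red, called lower; blue, called higher; grey, not called). The top row lies mostly below 0, while most lists spread to either side of it, and the 2 rightmost points are Cd63 at 3.63 and Lcn2 at 1.76.

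Red cell transcripts were low in all libraries. The 11 erythroid and platelet markers summed to 48.1 to 57.3 CPM in WT and 64.0 to 65.3 CPM in Trem2_KO. Of 7 tested, 2 were called higher, 0 lower and 5 were not called, so 28.6% were called against 30.4% of all tested genes. The 2 were Epor and the globin gene Hbb-bs, both named with their values known. Hbb-bs was read at 6.32, 6.65 and 5.82 CPM in the WT libraries and at 8.73, 10.7 and 10.8 CPM in the knockout ones, a change of 0.69 (edgeR adjusted p = 4.67e-05).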

How the data were processed

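Whole-number read counts per gene, with no normalization, were deposited by the authors for 6 Kupffer cell libraries, together with FPKM values, which the authors made from the count, the gene length and a divisor of each library (0.989 to 1.02 times its total). Per the submitters' processing notes, DESeq2 1.16.1, featureCounts 1.5.0-p3 and HISAT2 2.0.5 were used, with builds GRCm38 and mm10. How strand and multi-mapping reads were handled is not stated there.

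Groups and replicate numbers came from the sample titles. Counts of 13776 genes kept by filterByExpr were tested with edgeR 4.0.16 in R 4.3.3 (TMM, quasi-likelihood, robust, genotype only), with Benjamini-Hochberg adjustment over all of them and a threshold of 0.05. Each SE was taken from the fold change and its quasi-F value. Limma 3.58.1 and DESeq2 1.42.0 were alternatives. The length trend was removed by a lowess curve of each library on log gene length. A count of 3 corresponds to 0.173 to 0.192 CPM.

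The test was run on simulated data for the 13776 genes of this comparison, with 200 changed. Among genes of at least 40 CPM it recovered 25.3% of those changed 1.1-fold, 59% of those changed 1.15-fold and 95.2% of those changed 1.25-fold. Of all its calls 8.35% were false, above the nominal 0.05. The data themselves gave 4182 calls, far more than the 200 changed genes of the simulation. These rates may therefore not hold for the calls reported here.

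The members and lists were chosen with earlier results of these data known. Named genes are the 10 members, Trem2, Hmox2, Bach1, Nfe2l2, Aco1, Ireb2 and up to 3 called genes per list by smallest p. Some genes under this rule are not reported here. Any other gene is marked in the text as chosen with its value known or seen, save the copy of Ftl1 and the genes that overlap a member. Gene coordinates in the table equal those of GENCODE M21 for 9 of 10 members; Fth1 has a longer model there.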

Additional observations from a re-analysis of the deposited data

How the results depend on the processing

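The 7 falls kept their direction under all 22 alternatives, and 7 genes were called lower under every scaling, filter and tool and with each library left out (7 to 7). Exceptions were 6 without the trend of gene length and 6 under the replicate block (Ftl1 at -0.41, adjusted p = 0.0597), and 5 and 0 where the coefficient of biological variation was set to 0.1 and 0.2. The share of all tested genes called ran from 2.69% with this coefficient at 0.2 to 38.1% with the stricter filter. Against 0 genes called higher, 2 were called higher with total counts and with the stricter filter, 1 with the length trend removed, with or without the replicate block, and 0 to 1 with a library left out. Blvra changed sign with total counts (0.00065), with the length trend removed (0.0365), and with it removed under the replicate block (0.0368). Of related genes, 8 and 5 were called higher and 3 and 1 lower with the coefficient fixed at 0.1 and 0.2, and 19 to 20 higher and 16 to 24 lower with a library left out. The differences within libraries kept their sign, at -0.115 to -0.0949 percentage points for the ferritin share, 0.10 to 0.18 for Fth1 to Ftl1 and -0.58 to -0.47 for Slc40a1 to Tfrc with a library left out, and the ferritin share computed from FPKM differed by -0.219 percentage points. Same-numbered libraries did not deviate together (r = -0.008, 0.003 and 0.036), so the numbers were not taken as pairs. The cause of these shifts was not tested. Depth limits changes of Lcn2, Me1 and other genes near 1 CPM.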
